A study of Mus musculus with 8 samples.

Results

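Transcripts of the Notch receptors and of their ligands were followed in Paneth cells and in their labelled descendants after irradiation. The set was fixed by gene symbol and comprised the receptor genes Notch1, Notch2, Notch3 and Notch4 and the ligand genes Dll1, Dll4, Jag1 and Jag2. All 8 symbols were present among the 24013 in the expression table. All RNA came from intestinal epithelial cells of mice with the alleles Lyz1CreER; R26R-tdT, on a mixed C57/BL6 and 129 background and 8 to 14 weeks old. Each mouse had received 1 dose of 10 mg of tamoxifen. In these animals the Lyz1 gene, which encodes the lysozyme of Paneth cells, drives a tamoxifen-dependent recombinase, so that tdTomato marks cells that expressed Lyz1 at the time of the dose and whatever descends from them. Viable CD45-negative, EpCAM-positive, tdTomato-positive cells were divided by the surface protein CD24. The groups were CD24+ cells (the Paneth cell gate) of non-irradiated mice (2 libraries), CD24+ cells of mice irradiated 5 days earlier (3 libraries) and CD24- cells (the derivatives) of irradiated mice (3 libraries). A CD24- group without irradiation was not analysed here. The labels do not say whether the libraries of a group came from separate mice, so the p-values describe only how far these libraries spread, which may be technical.

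Notch signalling passes between touching cells. A ligand of the Delta-like (Dll) or Jagged (Jag) family on one cell binds a Notch receptor on its neighbour, the receptor is cut by ADAM and gamma-secretase proteases, and the freed intracellular part enters the nucleus and activates genes with the DNA-binding protein RBPJ. In the intestinal crypt Dll1 and Dll4 are presented by Paneth cells and secretory progenitors, and Notch1 and Notch2 on the dividing cells receive the signal, which keeps those cells from becoming secretory. Notch3 is best known from the mural cells of blood vessels and Notch4 from endothelium.

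The labelled cell types were matched by their defining transcripts. Lyz1 stood between 19016 and 48892 FPKM (fragments per kilobase of transcript, scaled to the mapped fragments of the library) in the 5 CD24+ libraries and between 384 and 2576 in the 3 CD24- libraries, where the 8 Paneth markers listed summed to 20772, 6131 and 3418 FPKM in replicates 1, 2 and 3. The 100 most abundant entries of the table together held 86.1% to 93.9% of all FPKM in CD24+ libraries and 30.9% to 37.7% in CD24- libraries. The share left for all other genes therefore differed between gates, and the median gene of the 11190 tested was higher by 0.51 (log2) in irradiated CD24- than in irradiated CD24+ cells. Between irradiated and non-irradiated CD24+ cells this shift was 0.32. Among CD24+ libraries the scaling factor from medians of ratios was lowest in non-irradiated replicate 1, at 0.528, and lay between 0.859 and 0.993 in the remaining 4. In CD24- libraries it lay between 1.33 and 1.48. All FPKM of a library summed to 1329221 to 1638347 in CD24+ and to 540467 to 582799 in CD24- libraries. The table gives no read numbers. Steps between low values put the libraries at about 34700000 to 45700000 fragments, an approximation that rests on transcript lengths of another annotation.

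Ligand transcripts of the Delta-like family were the most abundant of the set in every library, and the receptors were scarce (see the plot of FPKM by library). Dll4 stood at 6.46 and 8.69 FPKM in non-irradiated CD24+ replicates 1 and 2, at 7.38, 10.3 and 7.30 in irradiated CD24+ replicates 1, 2 and 3 and at 6.58, 4.77 and 7.20 in the CD24- replicates in the same order. Dll1 stood at 5.30 and 5.69, at 6.64, 7.50 and 4.90, and at 10.9, 6.04 and 5.32 FPKM. The lowest of all 16 Delta-like values lay above the highest value of any other member. Dll1 and Dll4 together made up 86.9% to 91.2% of the summed ligand FPKM in the 5 CD24+ libraries and 78.9% to 84.3% in the 3 CD24- libraries, ranges that did not overlap.

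**Figure D1:**
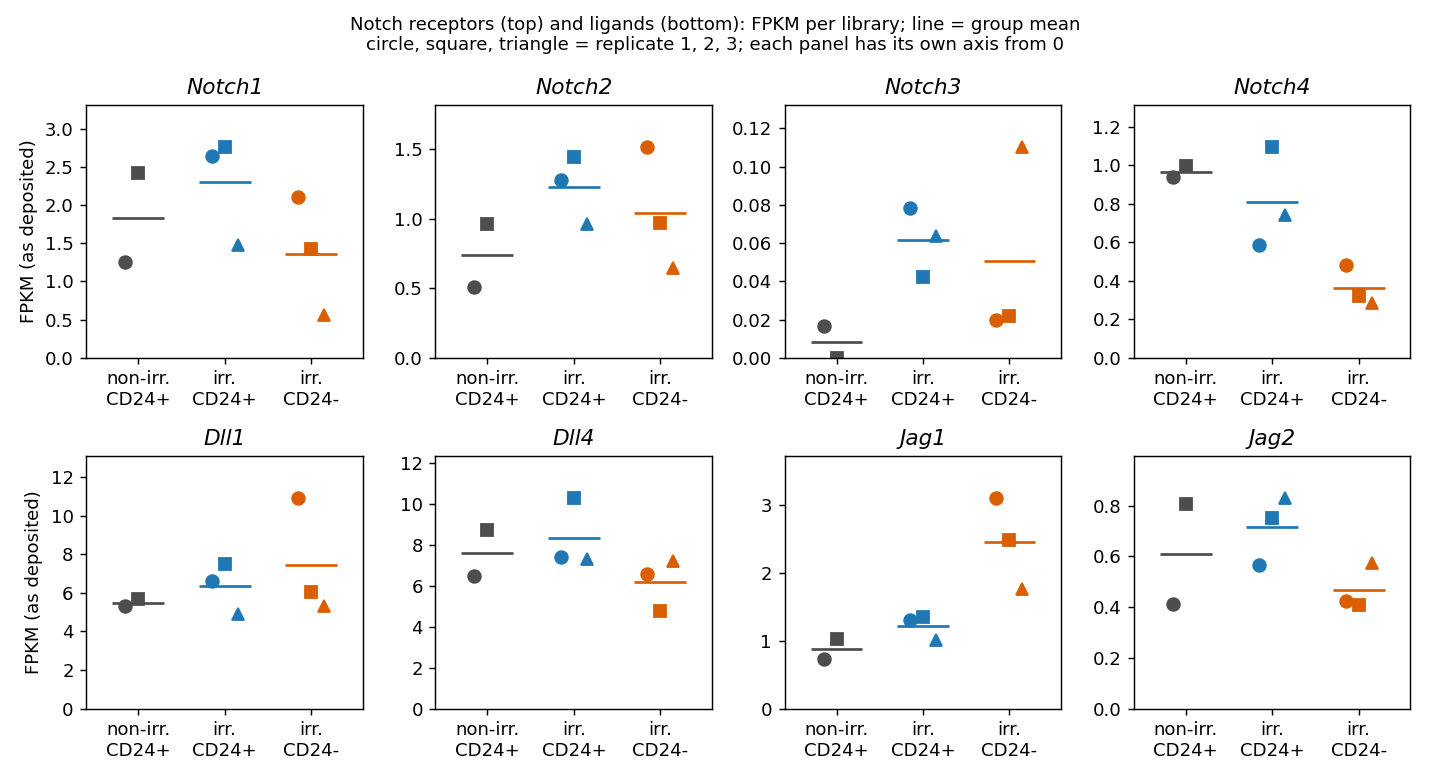
FPKM of the 8 genes as deposited, 1 panel per gene with its own axis from 0, for the 3 groups; points are libraries (circle, square and triangle for replicates 1, 2 and 3) and lines are group means. Jag1 is higher and Notch4 lower in every CD24- library than in any CD24+ library, whereas the points of Notch1, Notch2 and Dll1 overlap between the gates.

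Notch1, the most abundant receptor transcript on average, stood at 1.25 and 2.42 FPKM in non-irradiated CD24+ cells, at 2.64, 2.76 and 1.48 in irradiated CD24+ cells and at 2.1, 1.42 and 0.559 in CD24- cells. Notch2 stood at 0.511 and 0.960, at 1.28, 1.44 and 0.961, and at 1.51, 0.968 and 0.643 FPKM. Both receptors were highest in replicate 1 and lowest in replicate 3 of the CD24- group. Notch1 exceeded Notch2 in 7 of 8 libraries, the exception being CD24- replicate 3. Notch4 stood at 0.938 and 0.999, at 0.589, 1.10 and 0.745, and at 0.480, 0.322 and 0.282 FPKM. Its values in the CD24- group all lay below those of both other groups.

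Notch3 was barely detected. Its FPKM was 0.0168 and 0 in non-irradiated CD24+ cells, at 0.0785, 0.0421 and 0.0639 in irradiated CD24+ cells and at 0.0199, 0.0217 and 0.110 in CD24- cells. With a transcript of 8016 bases, 1 fragment was worth about 0.00273 to 0.00359 FPKM, so that these values correspond to roughly 0 to 37 fragments per library. The other 7 members rested on more, from about 72 to 174 fragments for Jag2 and 74 to 305 for Notch4 up to 712 to 1636 for Dll1 and 620 to 1626 for Dll4. Notch1 rested on about 223 to 1105 fragments, Notch2 on 245 to 664 and Jag1 on 187 to 727. The transcripts of these receptors are long, 9488 bases for Notch1 and 10500 for Notch2, against 3581 for Dll1 and 3747 for Dll4.

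The Jagged ligands differed from each other. Jag1 stood at 0.728 and 1.03 FPKM in non-irradiated CD24+ cells, at 1.3, 1.35 and 1.01 in irradiated CD24+ cells and at 3.10, 2.48 and 1.75 in CD24- cells. Jag2 stood at 0.412 and 0.806, at 0.564, 0.750 and 0.831, and at 0.425, 0.406 and 0.575 FPKM. Every CD24- library lay above every CD24+ library for Jag1, whereas the groups overlapped for Jag2.

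In irradiated CD24+ cells the order by mean FPKM was Dll4 (8.32 ± 1.70, SD, n = 3), Dll1 (6.35 ± 1.32), Notch1 (2.29 ± 0.709), Notch2 (1.23 ± 0.243), Jag1 (1.22 ± 0.183), Notch4 (0.810 ± 0.260), Jag2 (0.715 ± 0.137) and Notch3 (0.0615 ± 0.0183). The ranges of the neighbours Dll4 and Dll1 overlapped, as did those of Notch2 and Jag1, Jag1 and Notch4, and Notch4 and Jag2. Dll1 lay above Notch1, Notch1 above Notch2 (by a margin of 1.48 to 1.44 FPKM) and Jag2 above Notch3 without overlap. Dll4 exceeded Dll1 inside each of the 5 CD24+ libraries and in CD24- replicate 3, while Dll1 was the higher of the pair in CD24- replicates 1 and 2.

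Ranks placed these levels among all genes and do not move with library scaling. Dll4 lay above 63.2% to 69.3% of tested genes in non-irradiated CD24+, 56.1% to 66.3% in irradiated CD24+ and 33.0% to 43.9% in CD24- libraries. Its rank in every CD24- library was thus below that in every CD24+ library. The same held for Notch4 (1.42% to 1.92% against 3.85% to 15.2%) and Jag2 (1.73% to 3.07% against 3.63% to 5.35%). Ranks of Notch2 and of Notch3 overlapped between the gates. How many of all tested genes separated by rank was not counted. The rank of Jag1 moved the other way, from 6.70% to 12% over the 5 CD24+ libraries to 13.8% to 20.9% in CD24- libraries. Dll1 ranked at 44.0% to 63.4% and 36.5% to 52.2%, and Notch1 at 13.3% to 27.8% and 2.92% to 14.4%, and both pairs of ranges overlapped.

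**Figure D2:**
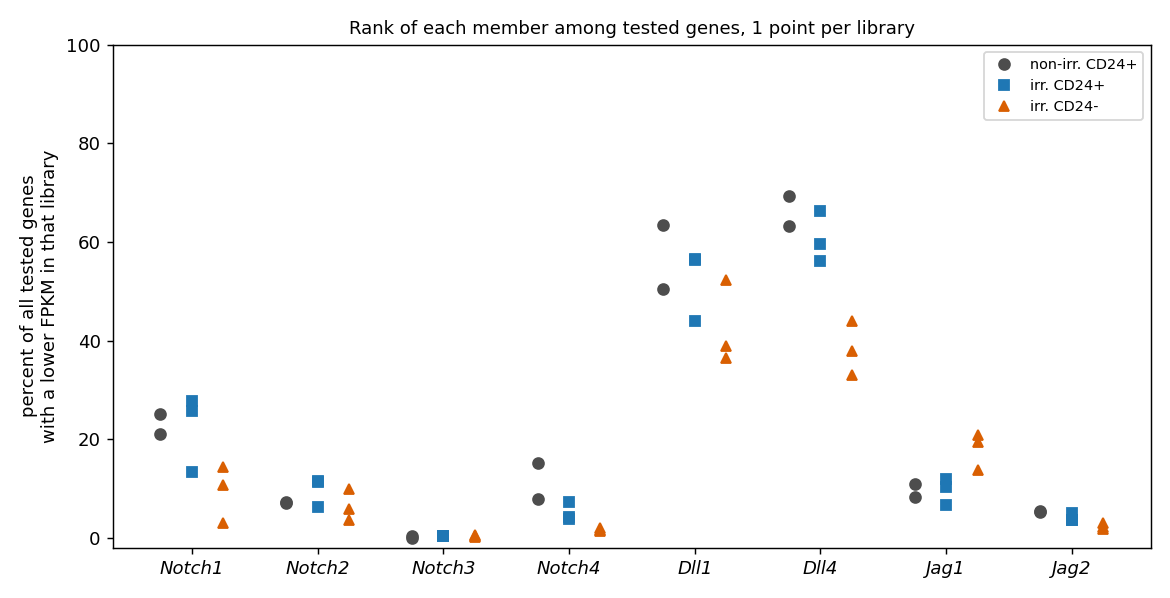
Percent of tested genes with a lower FPKM than the named gene in the same library, 1 point per library, for non-irradiated CD24+ (circles), irradiated CD24+ (squares) and irradiated CD24- cells (triangles). The triangles of Dll4 (33.0% to 43.9%), Notch4 (1.42% to 1.92%) and Jag2 (1.73% to 3.07%) lie below all other points of the same gene. Those of Jag1 (13.8% to 20.9%) lie above all of its other points.

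A gene entered the test when its FPKM reached 1 in at least 2 libraries. Dll1, Dll4, Notch1, Jag1 and Notch2 did so (8, 8, 7, 7 and 3 libraries), and these 5 are described with the test over all 11190 genes. Notch4 reached 1 FPKM in 1 library and Jag2 and Notch3 in 0, so these 3 were left out of it. They are given instead from a fit with no filter over 17604 genes. A member close to the filter passed only through its higher libraries, so no count over the 5 is read as evidence.

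The first comparison, irradiated against non-irradiated CD24+ cells, bears on whether the Paneth cell gate carried different Notch receptor or ligand transcripts 5 days after irradiation. None of the 5 tested members was called by limma with Benjamini-Hochberg adjustment at an adjusted p under 0.05, and neither was any other gene (0% called). With the replicate number as a block 92 genes (0.822%) and 0 members were called, and without non-irradiated replicate 2 there were 5185 genes and 0 members. At an unadjusted p under 0.05 there were 0 of the 5 members, against 12.7% of all genes. Among receptors the log2 fold change was 0.22 for Notch1 (95% interval -0.45 to 0.90, adjusted p = 0.597) and 0.37 for Notch2 (-0.11 to 0.84, adjusted p = 0.348). Among ligands it was 0.16 for Dll1 (-0.45 to 0.78, adjusted p = 0.668), 0.12 for Dll4 (-0.41 to 0.64, adjusted p = 0.718) and 0.24 for Jag1 (-0.21 to 0.69, adjusted p = 0.426).

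The irradiated libraries were all above the non-irradiated ones for Notch2, by 0.961 against 0.960 FPKM at the closest, and for Notch3, as they were for 34.2% of tested genes, against 1.13% with all irradiated libraries lower. Against the shift of 0.32 of the median gene, Notch1, Dll1, Dll4 and Jag1 lay slightly below it (by 0.10, 0.16, 0.21 and 0.08 on the log2 scale) and Notch2 at it. Notch4 differed by -0.13 (-0.43 to 0.17) and Jag2 by 0.10 (-0.19 to 0.39) in the fit with no filter, with adjusted p = 0.589 and 0.679 (0% of genes called higher and 0.00568% lower in that fit). The signs of Notch1, Dll1, Dll4 and Jag2 turned when libraries were scaled by medians of ratios (to -0.08, -0.25, -0.31 and -0.08). These intervals span changes of up to about 0.9 on the log2 scale for Notch1, so with 2 control libraries a change of that size was not resolved.

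The second comparison set CD24- derivatives against CD24+ cells within irradiated mice. On the values as deposited Jag1 was the only tested member called. Jag1 averaged 2.44 ± 0.675 FPKM (SD, n = 3) in CD24- and 1.22 ± 0.183 (SD, n = 3) in CD24+ cells, a rise of 0.62 ± 0.18 (SE) on the log2 scale (limma, Benjamini-Hochberg adjusted p = 0.0132). In this comparison 55.9% of all tested genes were called, 48.6% higher and 7.27% lower. The change of Jag1 lay 0.11 above the shift of the median gene, at percentile 55.6 of all changes, close to the middle of the genes tested. That distance depends on the 1 added to FPKM before the log2, which understates changes of low genes. With 0.1 added instead, Jag1 rose by 0.92 against 0.60 for the median gene. In bulk samples such as these, fewer cells of a type and less RNA per cell cannot be told apart. The call of Jag1 was lost without irradiated CD24+ replicate 3 (adjusted p = 0.0565) or CD24- replicate 1 (adjusted p = 0.0524).

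Notch4 lay the other way. It averaged 0.361 ± 0.105 FPKM (SD, n = 3) in CD24- and 0.810 ± 0.260 (SD, n = 3) in CD24+ cells, and it fell by 0.40 ± 0.11 (SE) in the fit with no filter (adjusted p = 0.0272). In that fit 31.4% of genes were called higher and 6.13% lower, and the change of Notch4 lay at percentile 6.88. The call ended without any 1 of irradiated CD24+ replicates 2 and 3 and CD24- replicates 2 and 3 (adjusted p = 0.0548, 0.0599, 0.0849 and 0.0723), and with the replicate number as a block among irradiated libraries (adjusted p = 0.0871). The endothelial transcripts Kdr, Emcn and Flt1 were listed at 0 in all 8 libraries, and Cdh5 at 0 in 7. Pecam1, Tek and Vwf were above 0 in all 8. Of the 10 endothelial markers listed 1 reached 1 FPKM in CD24+ libraries, Esam at 2.75 to 4.06. In CD24- libraries 1 did so, Pecam1 at 1.11 FPKM in replicate 3, where Tie1 stood at 0.306. The summed endothelial markers ranged from 2.94 to 2.98 FPKM in non-irradiated CD24+, from 4.24 to 4.34 in irradiated CD24+ and from 0.929 to 2.19 in CD24- libraries, with 5, 5 and 4 of the 10 at 0 throughout the group. Esam held most of the CD24+ sum and moved with Notch4 between the gates, at 3.69 to 4.06 FPKM in irradiated CD24+ and 0.560 to 0.816 in CD24- libraries, and it was singled out after its values were seen. The other 9 markers summed to 0.196, 0.274 and 0.573 FPKM in irradiated CD24+ replicates 1, 2 and 3 and to 0.166, 0.50 and 1.63 in CD24- replicates, so that their ranges overlapped. The part of Esam in the result was not tested.

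The promoters of Jag1 and Notch4 are shown because these are the members that passed in opposite directions between the gates. The sequences are the 250 bases before the RefSeq start site (GRCm38.p6), read 5′ to 3′ on the strand of the gene, with CpG dinucleotides in capitals. The Jag1 window is chr2:137116521-137116770 on the minus strand and the Notch4 window chr17:34564045-34564294 on the plus strand.
Jag1: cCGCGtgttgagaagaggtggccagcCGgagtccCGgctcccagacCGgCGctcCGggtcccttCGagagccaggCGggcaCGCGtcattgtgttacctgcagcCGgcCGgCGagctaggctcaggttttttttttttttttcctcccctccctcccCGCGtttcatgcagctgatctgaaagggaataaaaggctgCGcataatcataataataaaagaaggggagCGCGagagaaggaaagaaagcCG
Notch4: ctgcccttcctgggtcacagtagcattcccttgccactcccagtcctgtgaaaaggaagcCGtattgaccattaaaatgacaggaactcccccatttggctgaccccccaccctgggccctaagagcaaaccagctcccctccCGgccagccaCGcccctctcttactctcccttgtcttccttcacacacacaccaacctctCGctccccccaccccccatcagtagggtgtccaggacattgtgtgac
The Jag1 window held 20 CpG dinucleotides, more than 82.1% of 32851 windows of the same length over all genes, and the Notch4 window held 4, more than 37.8% of them. Their base composition was alike, at 57.2% and 58.4% G or C. Windows of the other members held between 13 and 54 CpG. The core letters bound by RBPJ, GTGGGAA, searched on both strands, were in none of the 9 windows of the 8 genes and in 5.42% of all windows. That says only that these letters are not in these windows.

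Notch1 and Dll4 were lower in CD24- cells without passing the test as deposited. Notch1 averaged 1.36 ± 0.774 FPKM (SD, n = 3) in CD24- and 2.29 ± 0.709 (SD, n = 3) in CD24+ cells, a log2 difference of -0.51 ± 0.27 (SE, 95% interval -1.11 to 0.09, adjusted p = 0.135). With the replicate number as a block Notch1 passed (adjusted p = 0.0311, and 0.0185 among the irradiated libraries only), in fits that called 57.8% and 64.1% of all genes, and it did also without CD24- replicate 1 (adjusted p = 0.0424). Dll4 averaged 6.18 ± 1.26 against 8.32 ± 1.70 FPKM, a log2 difference of -0.38 ± 0.21 (SE, -0.85 to 0.09, adjusted p = 0.154). The 3 CD24- values of Dll4 lay below the 3 CD24+ values, by 7.20 against 7.30 FPKM at the closest. Groups separated downward in this way for 9.31% of tested genes and upward, as for Jag1, for 59.1%.

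The remaining members did not pass in this comparison. Notch2 differed by -0.14 (95% interval -0.57 to 0.28, adjusted p = 0.557), Dll1 by 0.16 (-0.39 to 0.71, adjusted p = 0.614), Jag2 by -0.22 (-0.48 to 0.04, adjusted p = 0.165) and Notch3 by -0.02 (-0.10 to 0.07, adjusted p = 0.768). Notch3 lay at 0 to 0.110 FPKM, where adding 1 before the log2 keeps any difference near 0. Its narrow interval is therefore no measure of precision, and with 0.1 added instead the difference was -0.15. Dll1 in CD24- cells rested on replicate 1 at 10.9 FPKM, and without that library its difference was -0.12. Every tested member but Jag1 lay below the shift of the median gene, by 1.02 for Notch1, 0.89 for Dll4, 0.65 for Notch2 and 0.35 for Dll1 on the log2 scale. Those changes stood at percentiles 8.01, 10.4, 17.1 and 29.9 of all tested genes.

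Library scaling decided which members passed between the gates. Under medians of ratios, which centre the median gene near 0, Notch1, Notch2 and Dll4 fell (by 0.82, 0.41 and 0.86 on the log2 scale, adjusted p = 0.0174, 0.0434 and 0.00262) and Jag1 no longer passed at 0.25 (adjusted p = 0.170). Under that scaling 32.4% of all genes were called higher and 24.4% lower. So scaled, Dll4 stood at 12.2 and 10.0 in non-irradiated CD24+ libraries, at 8.60, 10.4 and 7.56 in irradiated CD24+ libraries and at 4.45, 3.49 and 5.41 in CD24- libraries. The CD24- values of Dll4 were then well apart from the rest, with the irradiated gates at 4.45 ± 0.958 and 8.84 ± 1.41 (SD, n = 3 each).

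Calls also differed under the other scalings. With quantile normalization Notch1 and Dll4 fell by 0.69 and 0.95 (adjusted p = 0.0398 and 0.00183) and Jag1 rose by 0.43 (adjusted p = 0.0277), where 25.2% of genes were called higher and 30.5% lower. Rescaled to equal totals without the 100 most abundant entries, Notch1, Notch2, Dll1 and Dll4 fell by 1.14, 0.68, 0.76 and 1.3 and Jag1 stood at -0.05 (adjusted p = 0.786), with 17.7% of genes called higher and 49.3% lower. Rescaled to TPM (every library brought to the same total, Paneth products included), Notch2, Dll1, Dll4 and Jag1 rose by 0.54, 1.27, 0.74 and 1.46, with 89.4% of genes called higher and 2.32% lower. Array weights called 3 of the 5 members and 77.5% of all genes. Of the 5 tested members none kept its direction under all 5 scalings. Jag1 had the highest value of the 5 under each of them. In fits with no filter Notch4 fell under each scaling but TPM (0.04, adjusted p = 0.807), and Jag2 fell under medians of ratios, under quantile normalization and without the 100 most abundant entries (by 0.39, 0.26 and 0.59, adjusted p = 0.00488, 0.00907 and 0.00109).

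**Figure D3:**
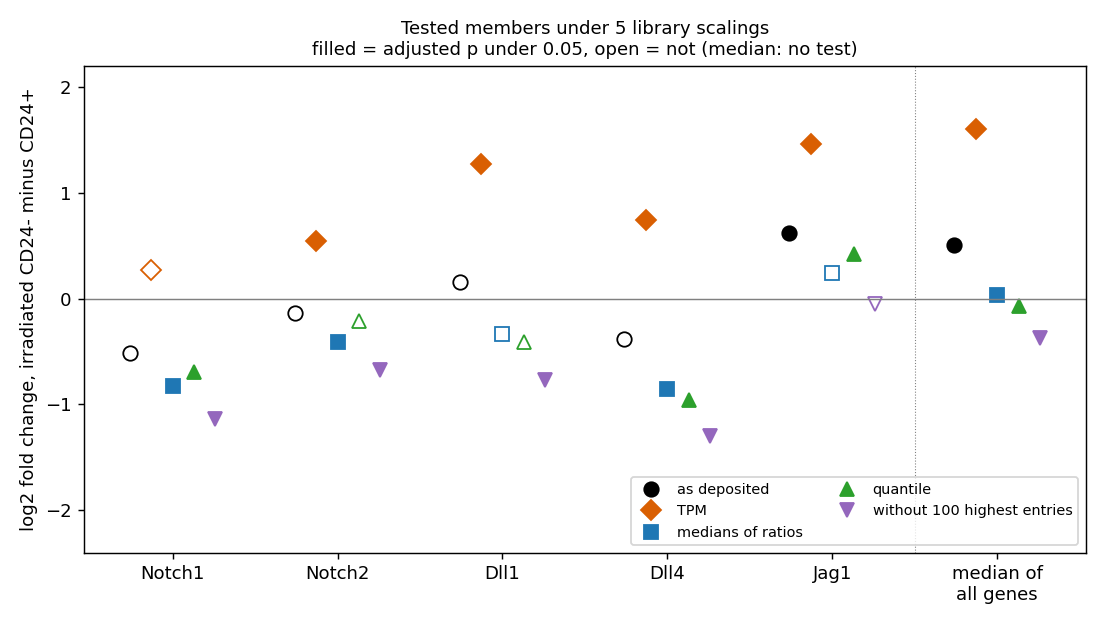
Log2 fold change of the 5 tested genes, irradiated CD24- minus irradiated CD24+, under 5 library scalings, with the median of all tested genes at the right; filled symbols passed at an adjusted p under 0.05. Jag1 is the highest of the 5 genes under each scaling, and Notch1, Notch2, Dll1 and Dll4 lie below the median of all genes under each (as deposited by 1.02, 0.65, 0.35 and 0.89).

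Ratios between members inside a library depend little on its scaling. They are given as log2 ratios of FPKM + 0.1, as a description with no test. The ratio of Dll1 to Jag1 stood at 2.70 and 2.36 in non-irradiated CD24+ libraries, at 2.27, 2.39 and 2.17 in irradiated CD24+ libraries and at 1.79, 1.25 and 1.55 in CD24- libraries. Jag1 to Jag2 stood at 0.69 and 0.32, at 1.08, 0.77 and 0.25, and at 2.61, 2.35 and 1.46. For both pairs the CD24- libraries were apart from all CD24+ libraries, with relatively more Jag1. How many other pairs of genes separate in this way was not counted. Among single tested genes 59.1% separated upward and 9.31% downward between the irradiated gates as deposited.

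Ratios with receptors are given in the same way, again without a count over other pairs. Notch1 to Notch2 stood at 1.15 and 1.25 in non-irradiated CD24+ libraries, at 0.99, 0.89 and 0.57 in irradiated CD24+ libraries and at 0.45, 0.51 and -0.17 in CD24- libraries. Notch1 to Dll1 stood at -2.0 and -1.20, at -1.3, -1.41 and -1.66, and at -2.32, -2.01 and -3.04. Relative to Notch2 the 3 groups did not overlap, and relative to Dll1 the CD24- libraries lay just below all others. Dll1 to Dll4 overlapped between gates, with -0.28 and -0.60, with -0.15, -0.45 and -0.56, and with 0.72, 0.34 and -0.43.

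**Figure D4:**
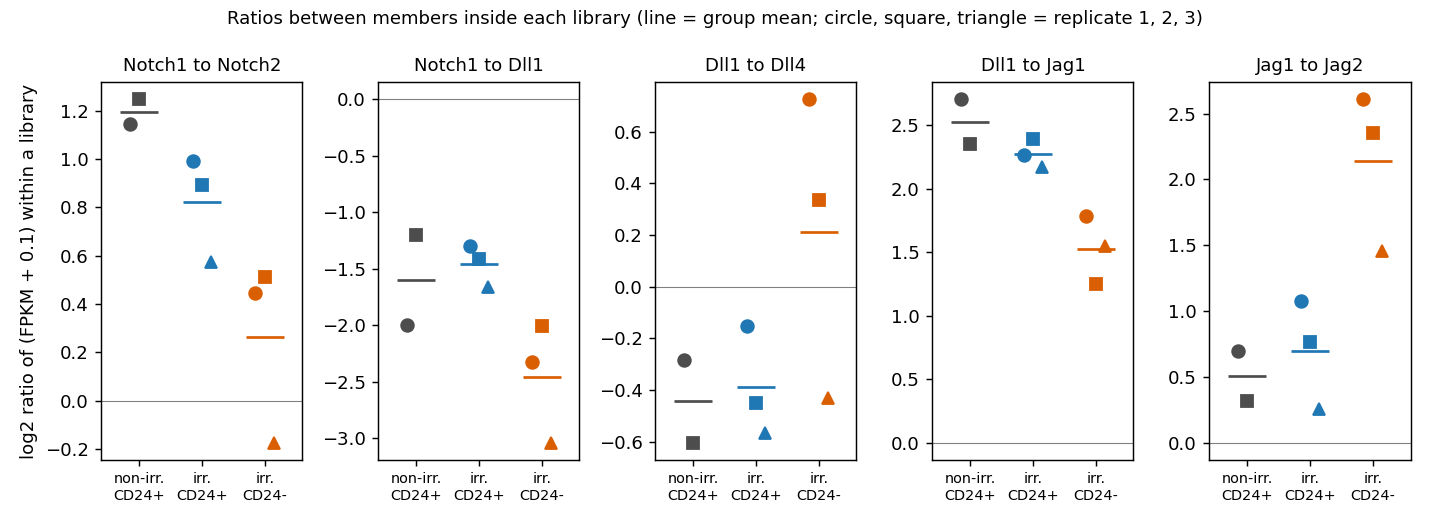
Log2 ratio of (FPKM + 0.1) of 5 pairs of genes inside each library, by group; points are libraries (circle, square and triangle for replicates 1, 2 and 3) and lines are group means. The CD24- points are apart from all CD24+ points for Notch1 to Notch2, Notch1 to Dll1, Dll1 to Jag1 and Jag1 to Jag2, and overlap with them for Dll1 to Dll4.

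Within the CD24- group Notch1, Notch2, Dll1, Jag1 and Notch4 were each highest in replicate 1, next in replicate 2 and lowest in replicate 3. Dll4, Jag2 and Notch3 were instead highest in replicate 3. The summed markers of crypt base columnar stem cells, the dividing cells at the crypt base, were 457, 327 and 66.2 FPKM in these replicates. They were higher in every CD24+ library, at 564 to 863 FPKM without and 1013 to 1266 FPKM with irradiation. Olfm4 held most of these sums, and the stem cell markers Ascl2, Axin2 and Aqp4 overlapped between the gates. The CD24+ values of the members thus come from a gate that also held these transcripts. In CD24- replicates 1, 2 and 3 the summed markers of enteroendocrine cells were 391, 1186 and 3277 FPKM. Those of enterocytes were 14384, 19556 and 33084, of goblet cells 9321, 8860 and 5158 and of Paneth cells 20772, 6131 and 3418. Such sums are weighted to the most abundant genes, and single markers did not all follow them. From replicate 2 to 3 Chga, Chgb, Neurod1 and Pcsk1 rose, while the enteroendocrine markers Cck, Gcg, Ghrl and Sct fell. The enterocyte markers Sis and Lct were lowest in replicate 3, while the other enterocyte markers listed were highest there. The Notch targets Hes1 and Nrarp stood at 20.3, 16.5 and 8.76 and at 9.48, 6.21 and 2.68 FPKM. The part of these cell types and targets in the receptor and ligand values was not tested. Tuft cells also carry CD24, and their 8 listed markers summed to 25.7 to 33.5 FPKM in non-irradiated CD24+, 7.37 to 19.7 in irradiated CD24+ and 2.14 to 4.0 in CD24- libraries.

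CD24- cells were also set against non-irradiated CD24+ cells, a secondary comparison in which gate and irradiation both differ. It shares its CD24- libraries with the comparison of gates and its control libraries with the first comparison. Jag1 rose by 0.86 ± 0.20 (SE) on the log2 scale (limma, adjusted p = 0.00309), from 0.879 ± 0.214 (SD, n = 2) to 2.44 ± 0.675 FPKM (SD, n = 3). Here 70.7% of genes were called, and 65.7% of genes were called higher and 4.99% lower, and the change of Jag1 stood at percentile 49.3. Notch4 fell by 0.53 ± 0.13 in the fit with no filter (adjusted p = 0.0114, where 42% of genes were called higher and 4.78% lower), from 0.968 ± 0.0430 to 0.361 ± 0.105 FPKM. Notch1 (-0.29, adjusted p = 0.410), Notch2 (0.22, adjusted p = 0.364), Dll1 (0.32, adjusted p = 0.317) and Dll4 (-0.26, adjusted p = 0.339) did not pass. Every CD24- library lay above the controls for Jag1 and Notch3, as for 70.1% of tested genes, and below them for Notch4, as for 6.17%. For Notch3 the gap was 0.0199 against 0.0168 FPKM, about 7 against 6 fragments, and the groups overlapped under medians of ratios and without the 100 most abundant entries. Under medians of ratios Notch1 and Dll4 fell (by 0.90 and 1.16, adjusted p = 0.0212 and 0.00109) and Jag1 no longer passed (adjusted p = 0.211), with 29.6% of all genes called higher and 22% lower. Quantile normalization called 2 of the 5 members (24.4% of all genes higher, 26% lower), leaving out the 100 most abundant entries 3 (16.6% and 44.8%) and TPM 4 (93.2% and 1.89%). The call of Notch4 was lost under TPM (adjusted p = 0.990).

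The machinery around the receptors and ligands was summarised from 7 lists with 52 genes, all present and 37 of them tested. None of the 37 was called between irradiated and non-irradiated CD24+ cells. Between the irradiated gates 19 rose and 2 fell, a share of 51.4% higher against 48.6% of all genes, and their median change was 0.54 against 0.51. Under medians of ratios 13 rose and 10 fell. The counts of these lists include Neurl1b and Dll3, each of which passed the filter only through the gate where it was high.

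The counts of single lists stand beside 48.6% of all genes called higher and 7.27% lower between the irradiated gates. Median changes were 1.03 for receptor-cutting proteases, 1.11 for ligand endocytosis, 0.54 for trafficking and turnover and 0.57 for maturation. That of all genes was 0.51. Of 7 tested genes for receptor-cutting proteases 6 rose in CD24- cells, among them the gamma-secretase subunit genes Aph1a (63.4 ± 3.08 against 22.1 ± 1.36 FPKM) and Ncstn (56.6 ± 3.23 against 21.6 ± 2.96). Of 7 genes for ligand endocytosis, by which the sending cell pulls on a bound receptor, 5 rose, and the smallest adjusted p belonged to the ubiquitin ligase genes Neurl3 (94.2 ± 1.42 against 21.1 ± 1.60) and Neurl1b (1.75 ± 0.265 against 0.273 ± 0.0399). Neurl1b stayed under 1 FPKM in every CD24+ library and passed the filter only through CD24- libraries, so its call is not read as evidence. Of 7 genes of receptor trafficking and turnover 4 rose, among them Numb, an inhibitor of Notch receptors (27.3 ± 2.63 against 3.55 ± 0.167), and Dtx3l (26.8 ± 2.53 against 5.91 ± 0.542). Of 5 receptor maturation genes Furin, which cleaves the newly made receptor, and the Fringe gene Rfng rose, and the Fringe gene Lfng, whose product adds sugars to Notch, fell (1.68 ± 1.28 against 5.22 ± 1.25 FPKM). Of 7 genes of the nuclear complex 2 rose, the coactivator gene Maml1 (3.31 ± 0.921 against 2.01 ± 0.0602) and Snw1 (33.9 ± 3.84 against 21.8 ± 1.49). Their log2 changes, 0.50 and 0.61, were near the shift of the median gene. The median change of the nuclear complex list, 0.25, lay below it. Pofut1 and Poglut1, which attach the first sugars, differed by 0.57 and 0.04 on the log2 scale and did not pass (limma, adjusted p = 0.0591 and 0.899).

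Of 8 Hes, Hey and Nrarp genes, listed as possible targets of the pathway, 3 were tested and 0 passed between the irradiated gates, with differences of 0.15 for Hes1, 0.22 for Nrarp and -0.07 for Hes6. Whether Hes6 responds to Notch in these cells was not tested. Hes1 encodes a repressor of secretory differentiation and Nrarp a feedback inhibitor of Notch. Against non-irradiated CD24+ cells Hes1 and Nrarp rose in CD24- cells by 1.02 ± 0.35 and 0.98 ± 0.39 (SE, limma adjusted p = 0.0225 and 0.0403). The median gene of all tested was itself higher by 0.88 there, so both lay only slightly above that shift. In that comparison 23 of the 37 genes of all lists rose and 2 fell, a share of 62.2% higher against 65.7% of all genes, and under medians of ratios 13 rose and 12 fell.

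Dll3, a Delta-like family member that does not activate receptors on neighbouring cells, was the only tested gene of the 4 other Delta-like or related ligands and fell in CD24- cells. It stood at 1.3 and 0.541 FPKM in non-irradiated CD24+, at 0.655, 1.32 and 0.685 in irradiated CD24+ and at 0.215, 0 and 0 in CD24- libraries (log2 difference between irradiated gates -0.80 ± 0.20, SE, limma adjusted p = 0.00510). Dll3 reached 1 FPKM only in CD24+ libraries and so passed the filter through the gate where it was high. Its call is therefore not read as evidence. Dlk1, Dlk2 and Dner stayed under 1 FPKM in every library.

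Across the 8 libraries the genes whose log2(FPKM + 1) was most like that of a tested member are given as a description, since all share the same libraries and gates. For Notch1 they were Ivns1abp (r = 0.979), Sema5a (0.960) and Fto (0.959), for Notch2 Zfp568 (0.988), Zfp59 (0.984) and Aasdh (0.983), and for Dll1 Gltscr1l (0.956), Iqsec2 (0.933) and Rest (0.932). For Dll4 they were 4933439C10Rik (0.953) and Edem1 (0.937), and for Jag1 Lrp6, Acvr1b and Cipc (all 0.996). The pattern of Jag1 was the commonest, with 2809 of 11189 other genes above r = 0.9, against 58 for Notch1, 152 for Notch2, 15 for Dll1 and 7 for Dll4.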

How the data were processed

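RNA sequencing of 8 libraries in 3 groups (2, 3 and 3) was used. The deposited values are FPKM per gene and library, made by the authors with TopHat2 2.1.0, StringTie 1.3.4 and build mm9, per the submitters' processing notes; the sources used here give no annotation, filter or strand setting. The kit (TruSeq v2, per the labels' protocols) does not mark strand, and in GENCODE M21 other genes overlap exons of Notch1, Dll1, Dll4 and Notch3 on the opposite strand (1068, 867, 214 and 488 bases), so reads of those partners cannot be told apart. The same holds for Notch2, whose exons share 541 bases with Gm42820 on the same strand.

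Of 24015 entries, 2 repeated symbols were summed. Genes at 1 FPKM or more in at least 2 libraries (11190) were fitted as log2(FPKM + 1), which understates changes of low genes, with limma 3.58.1 (R 4.3.3; all libraries in 1 fit, mean-variance trend, Benjamini-Hochberg, threshold 0.05). The procedure was tested on simulated data. Percent called is over all genes tested. Deviations from group means in irradiated CD24+ and CD24- libraries of equal number had r = 0.366, 0.231 and 0.402 over genes, so the number was also fitted as a block. The fits without a filter for Notch3, Notch4 and Jag2, and the block among irradiated libraries, were set up after seeing the data. Fragment numbers were approximated from the spacing of low FPKM times GENCODE transcript length and cover no more than the order of size. All 8 members were named, per other list at most 2 called genes (all where 5 or fewer were tested), and the 3 most correlated genes per tested member, of which 1 is not reported here. Members and lists were chosen with earlier results of these data known. Plots used matplotlib 3.10.9 (Python 3.11.15).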

Additional observations from a re-analysis of the deposited data

How the results depend on the processing

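Of 437 refits of single members 354 kept direction and side of the threshold, 28 gained a call, 12 lost one and 43 turned direction; where a scaling turned a direction, the shift of the median gene moved with it, and the cause of other changes was not tested. For irradiated against non-irradiated CD24+ cells limma called 0 genes as deposited, with 1424 at an unadjusted p under 0.05, and 1 with no filter, 3 under medians of ratios, 4 under quantile normalization, 4 without the 100 highest entries, 5 with only the compared groups and 92 with the replicate block. Leaving out single libraries gave 0 to 5185 genes, the highest without non-irradiated replicate 2 and 10 without replicate 1; 0 members were called in any of these fits. There, under medians of ratios, quantile normalization and without the 100 highest entries, Notch1 turned to -0.075, -0.048 and -0.068, Dll1 to -0.25, -0.21 and -0.24, Dll4 to -0.31, -0.27 and -0.30 and Jag2 to -0.078, -0.063 and -0.081. With single libraries left out Notch1 ranged from -0.077 to 0.52, Dll4 from -0.071 to 0.31 and Jag2 from -0.078 to 0.28.

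Between the irradiated gates 6252 genes were called, and 10260 after TPM. Members called numbered 1 as deposited, 4 after TPM, 3 under medians of ratios, 3 under quantile normalization, 4 without the 100 highest entries and 3 with array weights, beside 55.9%, 91.7%, 56.7%, 55.7%, 67.1% and 77.5% of all genes. With the replicate block 2 were called (Jag1 and Notch1, beside 57.8% of genes), also among irradiated libraries only (64.1%), where Notch4 lost its call, and the block changed no other member's call. Without single libraries 0 to 1 were called, beside 45.3% and 47.9% of genes in the fits without irradiated CD24+ replicates 1 and 2. TPM turned Notch1 to 0.27, Notch2 to 0.54, Dll4 to 0.74, Notch3 to 0.060, Notch4 to 0.036 and Jag2 to 0.26. Dll1 turned to -0.33 under medians of ratios, -0.41 under quantile normalization, -0.76 without the 100 highest entries and -0.090 with array weights, and Jag1 to -0.054 without the 100 highest entries. Without single libraries Notch2 ranged from -0.30 to 0.0051, Dll1 from -0.12 to 0.34 and Notch3 from -0.06 to 0.0051 (0.0038 without CD24- replicate 2).

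For CD24- against non-irradiated CD24+ cells 1 member was called as deposited, 4 after TPM, 2 under medians of ratios, 2 under quantile normalization and 3 without the 100 highest entries. Beside these stood 70.7% of all genes as deposited. Genes called higher and lower made up 93.2% and 1.89% after TPM and 29.6% and 22% under medians of ratios. They made up 24.4% and 26% under quantile normalization and 16.6% and 44.8% without the 100 highest entries. TPM turned Notch1 to 0.55, Dll4 to 0.99 and Jag2 to 0.38. Under medians of ratios, quantile normalization and without the 100 highest entries Notch2 turned to -0.24, -0.077 and -0.47 and Dll1 to -0.58, -0.61 and -1.0, and under the last of these Jag1 to -0.033. Without single libraries Notch1 ranged from -0.59 to 0.013 and Jag2 from -0.30 to 0.055. A filter at 5 FPKM left only Dll1 and Dll4 to test. Where a left-out library leaves 1 control, it is assumed to vary like the other groups.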
